A study of Mus musculus with 8 samples.

Results

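Ribosome biogenesis and nucleolar genes were examined in sorted mouse haematopoietic stem cells (HSCs), the cells that renew themselves and give rise to the blood lineages. The 44 genes were chosen by symbol, from a list of factors known to make ribosomes, and each was found once among the 55487 gene rows of the count files. All 44 passed the filter on low counts, which left 14360 genes. The bulk Smart-seq2 libraries fell into 2 groups, 4 labelled miR652-KD, in which the microRNA miR-652 was targeted, and 4 labelled NTC, a non-target control. The labels give the source of both groups as haematopoietic stem cells. They do not say how the knockdown was done, the age or strain of the mice, the sorting markers, or whether replicates came from separate animals, so a p-value here speaks of library-to-library spread, some of which may be technical. The series title concerns aged stem cells and pseudouridine synthase 10, and the comparison asks what differs in HSCs when miR-652 is reduced.

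Ribosomes are assembled in the nucleolus. RNA polymerase I (Pol I) transcribes the ribosomal DNA into a long precursor RNA, small nucleolar ribonucleoproteins (snoRNPs) guide its chemical modification, and a large complex called the small subunit processome cleaves and folds the part that becomes the small subunit, while other factors mature the large subunit. The box C/D snoRNPs methylate ribose and the box H/ACA snoRNPs convert uridine to pseudouridine. HSCs are known for low protein synthesis, which makes the supply of ribosomes a studied feature of these cells. The 44 genes were placed in 5 roles: 7 of Pol I transcription, 7 of the snoRNPs, 14 of the processome and small subunit, 14 of the large subunit, and 2 abundant nucleolar proteins.

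None of the 44 genes passed the test for a difference between miR652-KD and NTC. The test was edgeR's quasi-likelihood F test with Benjamini-Hochberg adjustment over all 14360 genes. It called 0 of 44 members, with 0.0418% of all genes called, and DESeq2 and limma-voom called 0 members as well. At an unadjusted p below 0.05, edgeR gave 1 member (Fbl, higher), DESeq2 2 and limma-voom 2. The shares of all genes were 5.99% with edgeR (2.9% higher and 3.09% lower), 6.78% with DESeq2 and 7.21% with limma-voom. The smallest adjusted p among members was 0.833. Of the 44 log2 fold changes (miR652-KD over NTC), 28 were above 0, which is 63.6%, against 49.5% of all genes. Their median was 0.11, from -0.37 to 0.73, against a median of -0.0043 over all genes. In 42 members the change was smaller than 0.5 in size, and the median standard error (SE) of a member's change was 0.197.

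The 5 roles differed in their medians. The snoRNP genes had a median of 0.28 with 6 of 7 above 0, and the processome and small-subunit genes a median of 0.15 with 8 of 14 above 0. The large-subunit genes had a median of 0.06 with 9 of 14 above 0, and the 2 abundant nucleolar proteins a median of 0.14 with both above 0. The Pol I genes had a median of -0.02 with 3 of 7 above 0. The difference between roles was not tested.

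**Figure D1:**
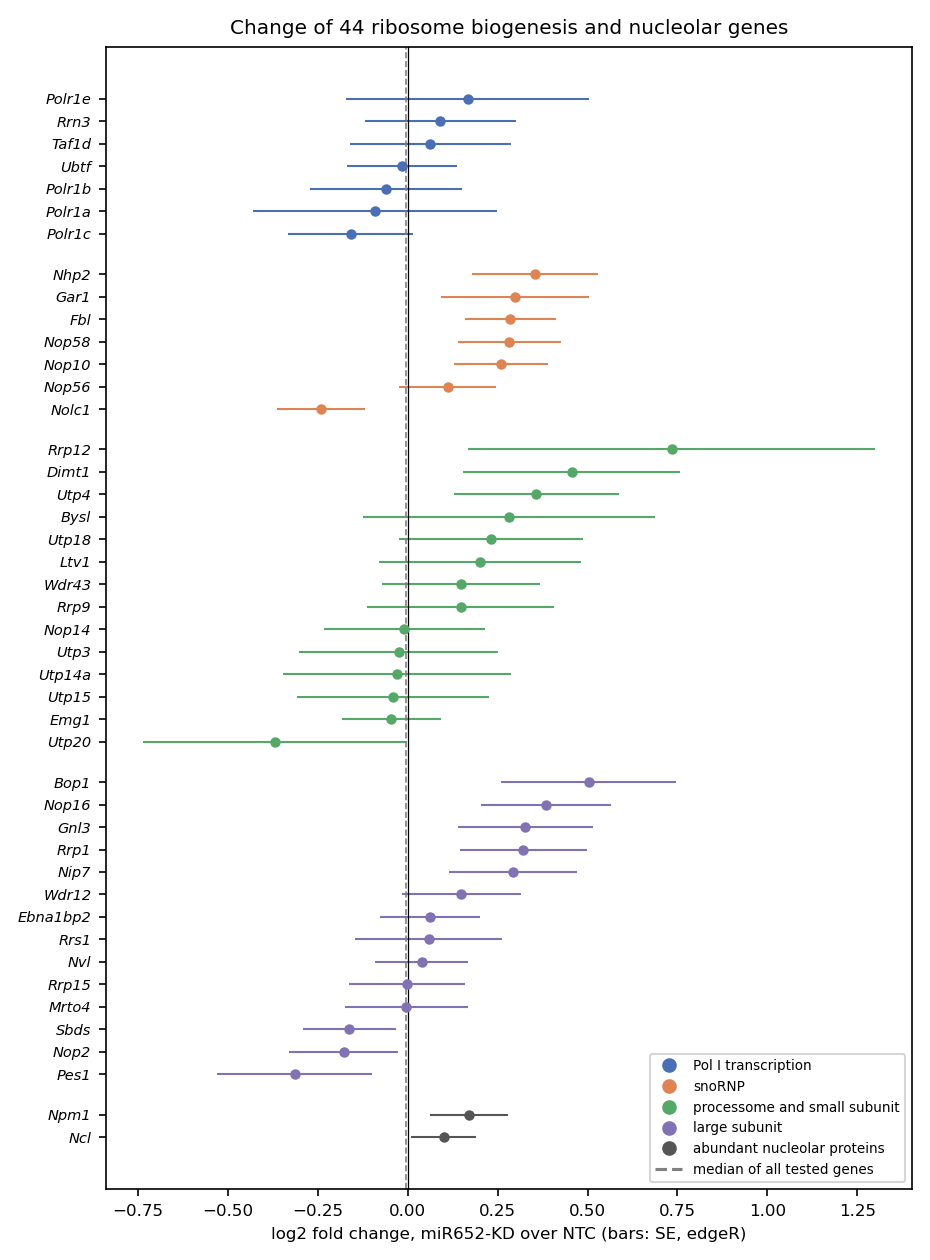
Log2 fold change of each of the 44 genes, miR652-KD over NTC, on the horizontal axis, with bars for the SE of the edgeR fit and colours for the role. The snoRNP genes other than Nolc1 lie right of 0, the Pol I genes lie on both sides of it, and no gene passed the test.

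Counts in genes ran between 14677644 and 19894821 per library in miR652-KD, and between 14017632 and 16763709 in NTC. The 11 HSC markers examined, among them Kit, Mecom, Hlf and Procr, were measured in all 8 libraries, with summed levels of 2390 to 2510 counts per 1000000 gene counts (CPM) in miR652-KD and 2294 to 2799 CPM in NTC. Single HSC markers differed in direction within that sum: at an unadjusted p below 0.05, Ly6a (0.62) and Hoxb5 (1.04) were higher and Kit (-0.34) and Mecom (-0.33) lower in miR652-KD, 4 of 11, and none passed after edgeR's adjustment. RNA of genes used as markers of other cell types was also counted, and bulk counts do not show which cells it came from. Of 10 erythroid markers, Car2 had a log2 fold change of 0.15 (SE 0.15), and the other 9 summed to 38.2, 121, 190.3 and 2302 CPM in miR652-KD replicates 1 to 4, against 2408, 5677, 2298 and 4197 CPM in NTC replicates 1 to 4. The summed level of 10 neutrophil and monocyte markers was 863 to 4789 CPM in miR652-KD and 852 to 15420 CPM in NTC. The sum of 10 macrophage and dendritic-cell markers was 2033 to 2503 CPM in miR652-KD and 863 to 1316 CPM in NTC, without overlap. Most of it came from 4 genes of MHC class II presentation, of which H2-Aa, H2-Eb1 and Cd74 passed edgeR's test, higher in miR652-KD, though 0 genes passed without any single library. H2-Ab1 and Cd68 did not overlap either, while the complement genes C1qa (0.05), C1qb (-0.54) and C1qc (-0.57) overlapped. Adgre1 and Itgax also overlapped and were too low to be tested. Their highest values were 3.83 and 1.09 CPM, both in miR652-KD replicate 2. Without the 4 class II genes the sum was 59.4 to 108 CPM in miR652-KD and 26.8 to 108 CPM in NTC. The T-cell genes Cd3e, Cd3g and Cd8a had 0 counts in every library. The part of these markers in the results on ribosome genes was not tested, and in bulk libraries fewer cells of a type and less RNA per cell cannot be told apart.

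The microRNA at which the knockdown was aimed has 2 mature arms, both from an intron of Tmem164 (GENCODE M21) on chromosome X. They are shown because their seeds (bases 2 to 8, in capitals) set which messages could be direct targets. The sequences are RefSeq's, build GRCm38.p6.
miR-652-3p, chrX:142739060-142739080, plus strand: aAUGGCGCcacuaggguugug
miR-652-5p, chrX:142739020-142739043, plus strand: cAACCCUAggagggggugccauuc
Letters complementary to the 3p seed (GCGCCAT) occurred in the longest annotated 3′ untranslated region of 1 of 44 members, Nvl, which is 2.27% against 1.98% of 11616 genes. Letters complementary to the 5p seed (TAGGGTT) occurred in 8 of 44 members, 18.2% against 8.45%. The 8 were Ncl, Nop56, Nop58, Utp15, Bysl, Pes1, Rrp15 and Nvl. The median length of these regions was 674 nucleotides in the members and 1170 nucleotides over all such genes. In the 8 members with a match the lengths were 7723 (Nop58), 6727 (Nvl), 5901 (Ncl), 2284 (Utp15), 2222 (Bysl), 1094 (Pes1), 823 (Nop56) and 425 (Rrp15). None of the matches was followed by an A. The sites of 3 members that carry much of the RNA in their groups and that of Nvl are given with their flanks, the match in capitals.
Nvl, 3p match: acgctctctgGCGCCATtactaactag
Ncl, 5p match: agaccctctgTAGGGTTgcgcttagca
Nop56, 5p match: gggttttctcTAGGGTTtaagagggcc
Nop58, 5p match: atgtccacacTAGGGTTgtagcaaact
The 8 members with a match of either arm had a median log2 fold change of 0.07, with 5 above 0, and the other 36 had a median of 0.15, with 23 above 0. The Mir652 precursor row held 5, 0, 0 and 0 reads in miR652-KD replicates 1 to 4 and 1, 0, 0 and 2 reads in NTC replicates 1 to 4. Libraries of this kind do not capture mature microRNAs, so the knockdown cannot be checked from them. A match is a description of letters and does not show that miR-652 acts on these messages.

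Levels of the members spanned 2 orders of size when divided by length. Per kilobase (kb) of annotated exon, Npm1 stood at 373 CPM per kb in miR652-KD and 332 in NTC, above 99.1% of all genes. Nop10 followed at 285 CPM per kb in miR652-KD and 238 in NTC, and Nhp2 at 220 in miR652-KD and 172 in NTC. At the low end were Utp20, at 2.26 CPM per kb in miR652-KD and 2.92 in NTC, and Rrp12, at 4.66 in miR652-KD and 2.82 in NTC. The catalytic Pol I subunit gene Polr1a was at 3.70 in miR652-KD and 3.96 in NTC. The length joins all annotated exons of a gene, so the order of genes depends on how many exons are annotated. The median member was at 25.3 CPM per kb over both groups and the median gene at 5.97, and 40 of 44 members were above that median. Of the 44, 42 were above 10 CPM in every library.

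The genes of the 2 abundant nucleolar proteins took more counts than any other members. Npm1 encodes nucleophosmin, a histone and ribosome chaperone of the nucleolus. It had 1001, 915, 1016 and 1043 CPM in miR652-KD replicates 1 to 4, against 872, 1062, 835 and 766 CPM in NTC replicates 1 to 4. NTC replicate 2 was above all 4 miR652-KD libraries and the other NTC libraries were below them, so that the groups overlapped through 1 library. The log2 fold change was 0.17 (SE 0.11, edgeR adjusted p = 0.934). Ncl encodes nucleolin, which binds the precursor RNA and ribosomal DNA chromatin. It had 709.7, 676, 782 and 765 CPM in miR652-KD, against 688, 768, 654 and 632 CPM in NTC, and NTC replicates 1 and 2 lay among the miR652-KD values. Its log2 fold change was 0.10 (SE 0.09, edgeR adjusted p = 0.992).

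Both classes of snoRNP were represented by their core proteins. Fibrillarin (Fbl), the methyltransferase of the box C/D particles, was at 169, 148, 168 and 173 CPM in miR652-KD, against 149, 151, 110 and 133 CPM in NTC. Only miR652-KD replicate 2 fell among the NTC values. The log2 fold change was 0.28 (SE 0.13), with an unadjusted p of 0.048 and an edgeR adjusted p of 0.833. Nop58, a box C/D core protein, was at 193, 173, 219 and 225 CPM in miR652-KD, against 142, 199.6, 151 and 173 CPM in NTC. The NTC library inside the miR652-KD range was replicate 2, the change was 0.28 (SE 0.14), and the edgeR adjusted p was 0.869. Nop56, the partner of Nop58, was at 278, 353, 233 and 335 CPM in miR652-KD, against 296, 290.4, 259.9 and 267 CPM in NTC, with miR652-KD libraries both above and below all NTC libraries. Its change was 0.11 (SE 0.14, edgeR adjusted p = 0.996).

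The 3 box H/ACA members encode proteins of the particles that carry the guided pseudouridylation of ribosomal RNA, and none passed the test. Nhp2 was at 185, 295, 283 and 244 CPM in miR652-KD, against 167, 240.1, 168 and 213 CPM in NTC, and miR652-KD replicate 1 lay within the NTC range. Its log2 fold change was 0.35 (SE 0.18, edgeR adjusted p = 0.864). Nop10, the smallest protein of the particle, averaged 316 ± 25.1 CPM in miR652-KD and 264 ± 43.5 CPM in NTC (SD, n = 4 each), a change of 0.26. Gar1 averaged 56.7 ± 9.60 CPM in miR652-KD and 46.2 ± 9.14 CPM in NTC (SD, n = 4 each), a change of 0.30. Dkc1, which encodes the pseudouridine synthase of these particles and was not a member, had a change of -0.01 (SE 0.16, edgeR adjusted p = 0.999). Nolc1, a chaperone of both snoRNP classes, was the 1 member whose groups did not overlap, against 4.5% of all genes, 2.35% higher and 2.15% lower. It had 85.4, 102, 100.3 and 82.2 CPM in miR652-KD, all under the 115, 107, 104 and 112 CPM of NTC, with a change of -0.24 (SE 0.12, edgeR adjusted p = 0.868).

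**Figure D2:**
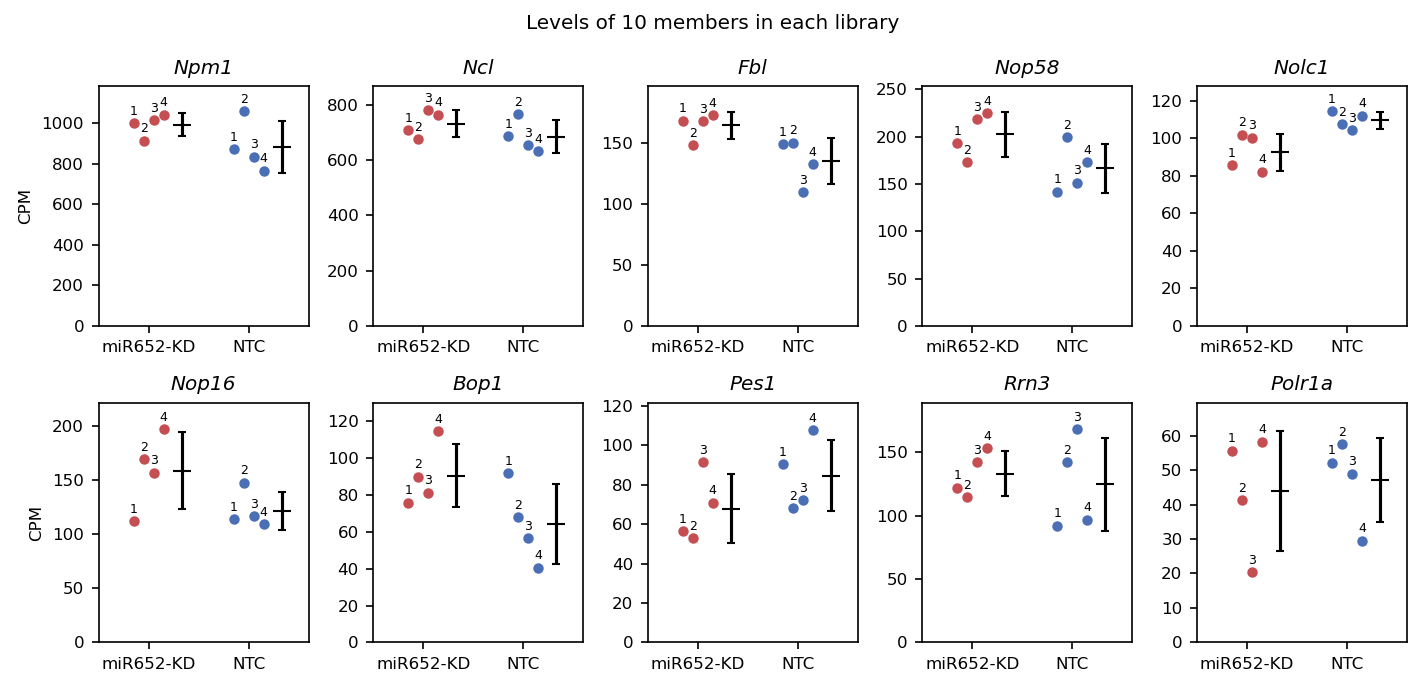
CPM of 10 members in each library, miR652-KD in red and NTC in blue, with replicate numbers beside the points and the mean ± SD (n = 4) as a bar. Nolc1 is the panel in which the groups do not overlap, and in Npm1, Ncl and Nop58 NTC replicate 2 lies within or above the miR652-KD values.

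The Pol I genes showed no common direction. Rrn3, the factor that carries the polymerase to the ribosomal promoter, was at 122, 115, 142 and 153 CPM in miR652-KD, against 92.0, 142, 168 and 96.7 CPM in NTC. NTC held both the lowest and the highest values, and the log2 fold change was 0.09 (SE 0.21, edgeR adjusted p = 0.999). Ubtf, which encodes the upstream binding factor of ribosomal DNA, was at 131, 157, 130.2 and 123 CPM in miR652-KD, against 180.3, 135, 116 and 119 CPM in NTC, with NTC replicate 1 highest and a change of -0.02 (SE 0.15, edgeR adjusted p = 0.999). Polr1a was at 55.7, 41.3, 20.5 and 58.2 CPM in miR652-KD, against 52.1, 57.4, 48.9 and 29.5 CPM in NTC. The libraries at the low end were miR652-KD replicate 3 and NTC replicate 4, and the change was -0.09 (SE 0.34, edgeR adjusted p = 0.999).

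Among the other subunit genes, Polr1b, for the second-largest subunit, was at 79.6, 103, 58.1 and 69.5 CPM in miR652-KD, against 88.8, 64.2, 100.3 and 72.0 CPM in NTC. The groups overlapped over most of their range, with a change of -0.06. Polr1c, for a subunit shared with RNA polymerase III, was at 95.0, 107, 86.6 and 86.6 CPM in miR652-KD, against 121, 126, 77.0 and 95.9 CPM in NTC, a change of -0.16. Polr1e was at 55.3, 23.0, 52.3 and 40.6 CPM in miR652-KD, against 48.4, 49.5, 33.5 and 21.8 CPM in NTC, a change of 0.17 with 1 low library in each group. Taf1d, for a subunit of the promoter selectivity factor, averaged 54.0 ± 5.50 CPM in miR652-KD and 51.6 ± 15.6 CPM in NTC (SD, n = 4 each). The edgeR adjusted p of these 4 genes ran from 0.995 to 0.999. The changes of Polr1a, Polr1b, Polr1e, Rrn3 and Ubtf each took the opposite sign when certain single libraries were left out.

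The processome and small-subunit genes spread more widely among themselves, between -0.37 for Utp20 and 0.73 for Rrp12. Rrp12, a factor of small-subunit export known from yeast, was at 18.5, 24.6, 13.0 and 24.8 CPM in miR652-KD, against 19.5, 10.6, 16.8 and 2.12 CPM in NTC. NTC replicate 4 stood well under the other libraries, the SE was 0.57 (edgeR adjusted p = 0.98), and without that library the change was 0.39. Dimt1, which dimethylates adenosines of the small-subunit RNA, was at 28.9, 20.9, 52.3 and 31.2 CPM in miR652-KD, against 19.0, 24.5, 24.8 and 28.9 CPM in NTC. Its change of 0.46 (SE 0.30, edgeR adjusted p = 0.941) came with 1 high library, miR652-KD replicate 3, without which it was 0.16, and 31.9% of its exon bases overlap Kif2a on the other strand. Utp4, of the early-binding processome subcomplex, was at 90.9, 74.5, 93.4 and 100.2 CPM in miR652-KD, against 45.0, 96.0, 69.0 and 69.8 CPM in NTC. NTC replicate 1 was lowest, NTC replicate 2 lay inside the miR652-KD range, and the change was 0.36 (SE 0.23, edgeR adjusted p = 0.934), 0.19 without NTC replicate 1 and 0.57 without NTC replicate 2.

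The other 11 genes of this role had changes of -0.37 to 0.28, and their edgeR adjusted p ran from 0.995 to 0.999. Utp20 averaged 23.0 ± 10.3 CPM in miR652-KD and 29.8 ± 5.67 CPM in NTC (SD, n = 4 each), with 9.48 CPM in miR652-KD replicate 2. Wdr43 (0.15), Utp15 (-0.04) and Utp18 (0.23) encode WD-repeat proteins of the processome, Rrp9 (0.15) is the protein that marks the U3 snoRNP, and Nop14 (-0.01), Utp3 (-0.03) and Utp14a (-0.03) act in the same complex. Utp3 had a within-group coefficient of variation of 46.2% in miR652-KD and 9.57% in NTC. Bysl (0.28) and Ltv1 (0.20) accompany the late small-subunit precursor. Emg1 (-0.05), which methylates a pseudouridine of the small-subunit RNA, averaged 227 ± 22.3 CPM in miR652-KD and 235 ± 35.9 CPM in NTC (SD, n = 4 each).

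The large-subunit genes include the 3 members of the PeBoW complex, Pes1, Bop1 and Wdr12, which differed among themselves. Bop1 was at 75.8, 89.8, 81.2 and 115 CPM in miR652-KD, against 91.7, 67.8, 56.4 and 40.5 CPM in NTC. NTC replicate 1 was above 3 of the 4 miR652-KD libraries, and the log2 fold change was 0.50 (SE 0.24, edgeR adjusted p = 0.86). Pes1 was at 56.3, 52.8, 91.2 and 70.8 CPM in miR652-KD, against 90.3, 68.1, 72.2 and 108 CPM in NTC. Here miR652-KD replicates 1 and 2 lay under all NTC libraries, and the change was -0.32 (SE 0.22, edgeR adjusted p = 0.951), -0.48 with miR652-KD replicate 3 left out and -0.17 with NTC replicate 4 left out. Wdr12 averaged 152 ± 11.7 CPM in miR652-KD and 137 ± 31.9 CPM in NTC (SD, n = 4 each), a change of 0.15 (edgeR adjusted p = 0.995).

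Nop16, a nucleolar protein of the large-subunit precursor known from yeast, was at 112, 169, 157 and 197 CPM in miR652-KD, against 114, 148, 116 and 109 CPM in NTC. All miR652-KD libraries but replicate 1 were above all NTC libraries, with a change of 0.38 (SE 0.18, edgeR adjusted p = 0.848). Rrp1 was at 289, 415, 308 and 469 CPM in miR652-KD, against 279, 313, 352 and 244 CPM in NTC, a change of 0.32 (SE 0.18, edgeR adjusted p = 0.903) that was 0.18 without miR652-KD replicate 4. Sbds, which helps to release the anti-association factor eIF6 from the large subunit and is mutated in human Shwachman-Diamond syndrome, was at 125, 141, 109 and 107 CPM in miR652-KD, against 155, 132, 119 and 136 CPM in NTC. Its change was -0.16 (SE 0.13, edgeR adjusted p = 0.987), with overlapping groups.

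Of the other large-subunit genes, Gnl3, for the GTPase nucleostemin, had a change of 0.33 and Nip7 one of 0.29. Nop2, for a methyltransferase of the large-subunit RNA, averaged 96.9 ± 16.5 CPM in miR652-KD and 110.1 ± 11.6 CPM in NTC (SD, n = 4 each), a change of -0.18. Ebna1bp2 (0.06), Rrs1 (0.06), Nvl (0.04), Rrp15 (-0.0028) and Mrto4 (-0.0040) were close to 0. Ebna1bp2 and Rrp15 varied little among the miR652-KD libraries, with coefficients of variation of 1.87% and 3.38%, against 16.5% and 18.3% in NTC. Over all 44 members the median coefficient of variation was 18.6% in miR652-KD and 18.2% in NTC, and it was higher in miR652-KD for 20 of them.

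**Figure D3:**
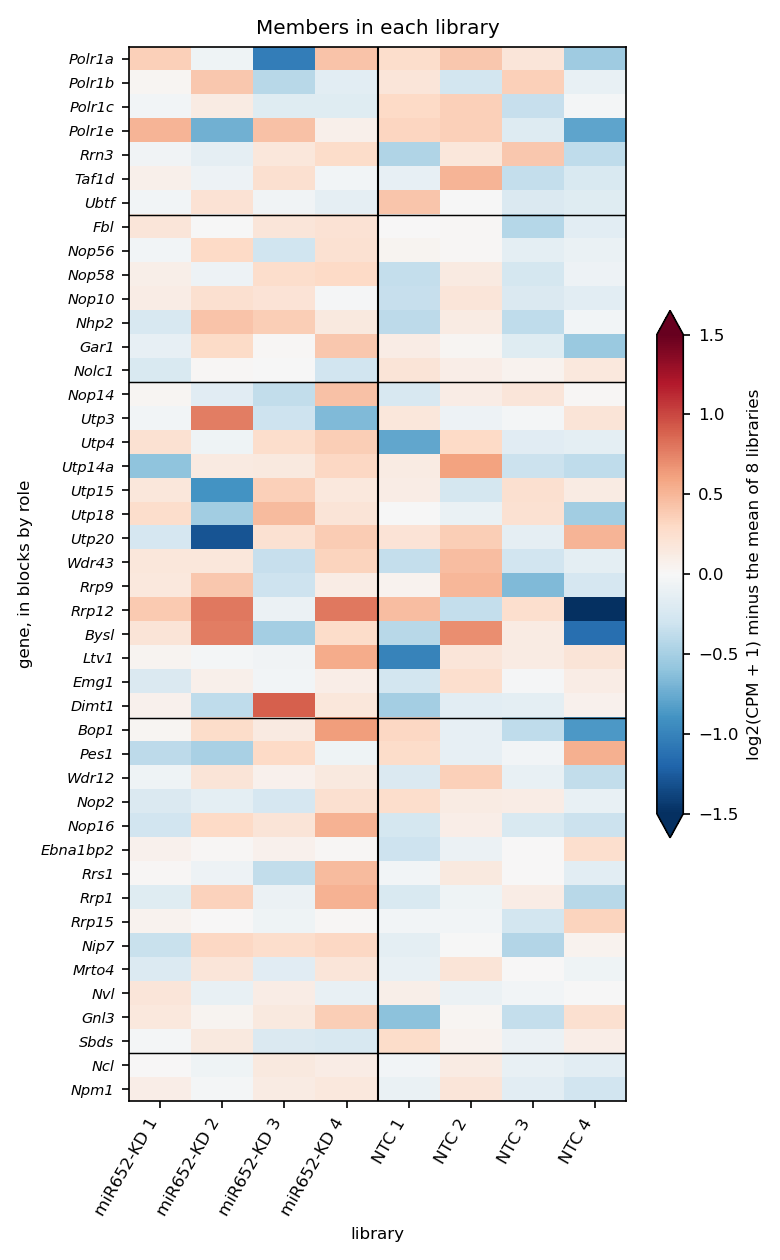
Each gene's log2(CPM + 1) in each library minus its mean over the 8 libraries, in blocks by role, miR652-KD left of the line and NTC right of it. miR652-KD replicate 4 and NTC replicate 2 are mostly above the mean and NTC replicates 3 and 4 mostly below it, while the other columns are more evenly mixed.

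Added up, the 44 genes took 0.606%, 0.646%, 0.632% and 0.687% of gene counts in miR652-KD replicates 1 to 4, against 0.566%, 0.662%, 0.558% and 0.553% in NTC replicates 1 to 4. NTC replicates 1, 3 and 4 were below all miR652-KD libraries, while NTC replicate 2 was above all but miR652-KD replicate 4. The means were 0.643% ± 0.0337 in miR652-KD and 0.585% ± 0.0518 in NTC (SD, n = 4 each), and without Npm1 and Ncl the summed level was 4701 ± 323 CPM in miR652-KD and 4281 ± 342 CPM in NTC (SD, n = 4 each). The snoRNP genes summed to 1384 ± 86.7 CPM in miR652-KD and 1197 ± 120 CPM in NTC, and the Pol I genes to 580.4 ± 20.7 CPM in miR652-KD and 586 ± 76.4 CPM in NTC (SD, n = 4 each). A library's place was shared by many members: 34 of 44 were above their own 8-library mean in miR652-KD replicate 4, 30 in NTC replicate 2, 15 in NTC replicate 3 and 14 in NTC replicate 4. In NTC replicate 1, 11 members had their lowest value, and there 16.9% of reads lay outside annotated genes, against 9.69% to 11.3% in the other libraries. NTC replicate 4 held the lowest value of 10 members, with 11.3% of reads outside annotated genes. A link between these values was not tested.

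**Figure D4:**
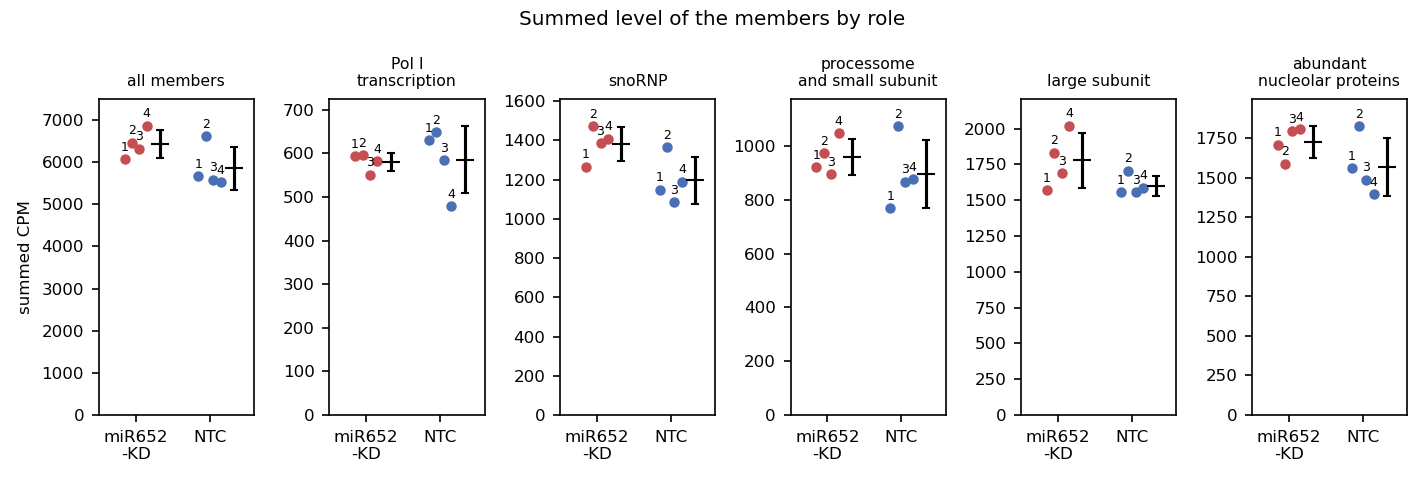
Summed CPM of all members and of each role by library, miR652-KD in red and NTC in blue, with replicate numbers and the mean ± SD (n = 4). NTC replicate 2 stands above the other NTC libraries in all 6 panels.

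The medians and the counts without overlap moved with NTC replicate 2. It had the highest sum of members in NTC, at 6622 CPM, so leaving it out must widen the gap between groups in that sum. Without it, the median log2 fold change of the 44 members was 0.24 and the number of members whose groups did not overlap was 7, which is 15.9% against 8.37% of all genes. They were Taf1d, Nop58, Nop10, Utp4, Wdr12 and Npm1, higher in miR652-KD, and Nolc1, lower. At an unadjusted p below 0.05 there were then 8 members, against 6.6% of all genes, and 0 passed after edgeR's adjustment. Without NTC replicates 3 and 4 the median of the members was 0.04 and that of the snoRNP genes 0.14. The processome and small-subunit median was 0.021 without NTC replicate 1 and 0.27 without NTC replicate 2. NTC replicate 2 was also the library with the highest sum of the 9 erythroid markers, at 5677 CPM, and miR652-KD replicate 4, with the highest sum of members, led the miR652-KD libraries in these markers at 2302 CPM. NTC replicate 4 came next in the erythroid sum, at 4197 CPM, and had the lowest sum of members, 5531 CPM. NTC replicates 3 and 4 had the highest sums of neutrophil and monocyte markers, at 10163 and 15420 CPM. The lowest was in NTC replicate 1, at 851.5 CPM, where the members summed to 5664.5 CPM. Among the miR652-KD libraries, replicate 1 was lowest both in the erythroid sum, at 38.2 CPM, and in the sum of members, at 6061.5 CPM. The part of these markers in the pattern was not tested.

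**Figure D5:**
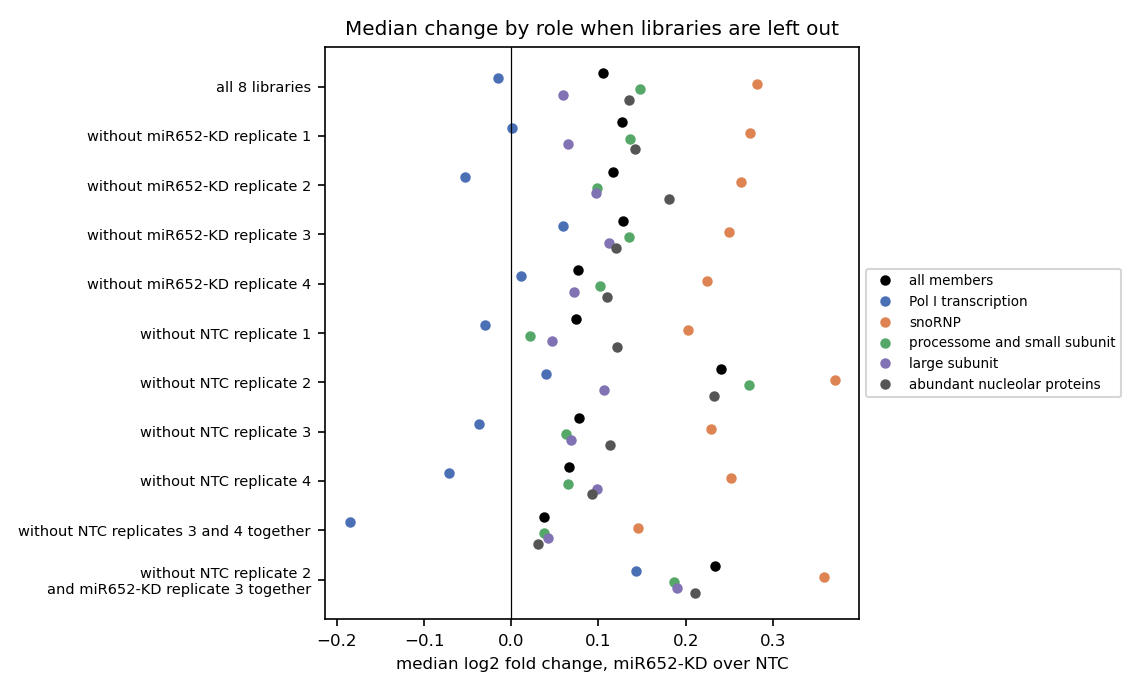
Median log2 fold change of all members and of each role with all libraries and with libraries left out. The snoRNP median stays between 0.14 and 0.37, the Pol I median falls on both sides of 0, and the median of all members is 0.24 without NTC replicate 2 and 0.04 without NTC replicates 3 and 4.

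Genes of the same pathway outside the 44 were read off the same fit, and 0 of 132 measured ones passed edgeR's test, with 6 at an unadjusted p below 0.05, which is 4.55% against 5.99% of all genes. Groups did not overlap in another count of 6, again 4.55%, against 4.5% of all genes. The role lists are approximate, with Rrp7a and Rrp36 counted under the large subunit and Tcof1 under the snoRNPs. Of 12 other snoRNP genes 9 were above 0, with a median of 0.21. The smallest p among them was that of Ruvbl1, an ATPase of snoRNP assembly, with a change of 0.39 (SE 0.14, edgeR adjusted p = 0.8). Shq1, an assembly factor of the H/ACA particles, had 39.9, 43.0, 43.6 and 49.7 CPM in miR652-KD, above the 32.8, 30.4, 31.1 and 9.02 CPM of NTC, a change of 0.78 (SE 0.36, edgeR adjusted p = 0.844). Of 8 other Pol I genes 4 were above 0 (median 0.09), of 40 other processome and small-subunit genes 24 (median 0.03), of 47 other large-subunit genes 31 (median 0.07), of 16 genes of the exosome and other RNA-trimming enzymes 10 (median 0.08) and of 9 measured snoRNA host genes 6 (median 0.03). Riok3, a kinase that associates with the small-subunit precursor, had the smallest p of these, at 60.1, 51.4, 53.3 and 57.4 CPM in miR652-KD, under the 73.5, 81.8, 97.9 and 88.3 CPM of NTC. Its change was -0.62 (SE 0.15, edgeR adjusted p = 0.598). Pak1ip1 (0.40) and Mak16 (0.43) of the large subunit did not overlap between groups either, nor did the exonuclease gene Eri1 (-0.37) and the host gene Snhg6 (-0.37).

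Some of the members have features that did not enter their choice. In 6 of 44, which is 13.6%, annotated snoRNA genes lie within the gene on the same strand, against 1.72% of 11660 protein-coding genes. These were Taf1d, Nop56, Nop58, Wdr43, Gnl3 and Ncl, with 26 snoRNA genes between them, and all 6 had changes above 0, with a median of 0.13. The other 38 had a median of 0.08, with 22 above 0. The snoRNAs themselves have no poly(A) tail and are not reported here.

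Promoters of 38 members were found in RefSeq's table (GRCm38.p6, 250 bases before to 50 after the start). The E-box CACGTG, read on both strands since it is its own complement, is the letters bound by MYC proteins, which are known to drive many ribosome biogenesis genes. It occurred in 8 of 38 member promoters, 21.1% against 10.4% of 9878 promoters of measured genes. The TATA letters TATAAA occurred in 1 of 38, Pes1, which is 2.63% against 6.58%. The 8 were Rrn3, Utp4, Utp18, Utp20, Wdr43, Ltv1, Pes1 and Nop2, and 3 of them, in which the E-box lies before the start, are shown with it in capitals.
Rrn3, chr16:13780449-13780748, plus strand: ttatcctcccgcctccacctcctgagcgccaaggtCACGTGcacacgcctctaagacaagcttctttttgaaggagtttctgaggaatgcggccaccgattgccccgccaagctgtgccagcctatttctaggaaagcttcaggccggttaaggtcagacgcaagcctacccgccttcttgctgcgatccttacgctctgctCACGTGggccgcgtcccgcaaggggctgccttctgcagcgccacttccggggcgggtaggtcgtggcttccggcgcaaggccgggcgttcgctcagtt
Utp18, chr11:93885717-93886016, minus strand: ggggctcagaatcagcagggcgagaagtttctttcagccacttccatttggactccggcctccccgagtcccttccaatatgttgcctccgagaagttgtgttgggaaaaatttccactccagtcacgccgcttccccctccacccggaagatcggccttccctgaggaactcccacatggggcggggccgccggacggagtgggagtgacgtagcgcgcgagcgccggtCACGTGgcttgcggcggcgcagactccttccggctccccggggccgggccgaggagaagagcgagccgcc
Nop2, chr6:125131633-125131932, plus strand: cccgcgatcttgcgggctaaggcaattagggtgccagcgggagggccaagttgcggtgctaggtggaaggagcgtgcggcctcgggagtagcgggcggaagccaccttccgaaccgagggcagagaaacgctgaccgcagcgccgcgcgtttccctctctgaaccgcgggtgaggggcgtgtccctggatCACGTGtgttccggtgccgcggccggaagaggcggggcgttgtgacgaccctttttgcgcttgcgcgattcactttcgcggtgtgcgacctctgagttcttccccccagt
In Rrn3 the letters begin 215 and 48 bases before the start, in Utp18 20 and in Nop2 60 bases before it. Members with an E-box had a median log2 fold change of 0.12, with 5 of 8 above 0, and the other 30 with a promoter a median of 0.08, with 18 above 0.

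The MYC genes themselves went separate ways without passing the test. Myc was at 306, 481, 221 and 348 CPM in miR652-KD, against 341, 406, 437 and 481 CPM in NTC, a change of -0.29 (SE 0.21, edgeR adjusted p = 0.965). Mycn was at 349, 356, 331 and 405 CPM in miR652-KD, against 351, 244, 206 and 254 CPM in NTC, a change of 0.46 (SE 0.15, edgeR adjusted p = 0.779). NTC replicate 1 was the library that overlapped the miR652-KD values of Mycn. Genes of dividing cells were measured beside them: 20 genes of the G2 and M phases summed to 942, 1262, 2076 and 1234 CPM in miR652-KD, against 765, 776, 1175 and 933 CPM in NTC, and 15 S phase genes to 1843 to 2583 CPM in miR652-KD, against 1349 to 2366 CPM in NTC. Of the 20 G2 and M phase genes, 19 had a log2 fold change above 0, with a median of 0.62. At an unadjusted edgeR p below 0.05, 9 of them were higher, and 5 were higher without overlap. Of the 15 S phase genes, 13 were above 0 (median 0.26), with 4 higher at that p and 1 without overlap. The shares of all genes were 2.9% higher at that p and 2.35% higher without overlap. After edgeR's adjustment 0 genes of either list passed. The part of cell division in the levels of the ribosome genes was not tested.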

How the data were processed

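The deposited files hold raw read counts per gene, 1 file per library. The mm10 build, HISAT2 2.1.0, HTSeq 0.11.2 and DESeq2 are named in the submitters' processing notes. Neither the annotation release nor the strand setting is given. Each file ends in 5 HTSeq summary lines, kept out of totals and tests; reads outside genes were 9.69% to 16.9% and ambiguous reads 8.94% to 12.3% of a file. Symbols, exon lengths and overlaps come from GENCODE M21 (GRCm38, the same build).

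CPM were computed over the gene rows of each library. Differences were tested in R 4.3.3 by edgeR 4.0.16, with TMM scaling, filterByExpr (minimum count 10, total 15), robust quasi-likelihood fits, the F test of group and Benjamini-Hochberg adjustment over all 14360 genes, called below 0.05. The SE was taken as the size of the log2 fold change over √F. Without molecular identifiers in Smart-seq2, PCR copies of a molecule count separately. The library preparation does not mark strand. Of 44 members, 17 share exon bases with another gene, and counts of Npm1 and other genes with near-identical copies are uncertain. The fit was tested on simulated data. The members and lists were chosen with earlier results of these data known. Named members are the textbook ones, the 3 of smallest p per role of 7 or more, and those whose groups did not overlap. Alternatives were RLE and upper-quartile scaling, library totals, DESeq2 1.42.0, limma-voom (limma 3.58.1), other filters, non-robust fits, a replicate block and leaving out libraries.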

Additional observations from a re-analysis of the deposited data

Results flagged for a closer look

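Each group of 4 libraries was examined for 1 library that stands apart, for 44 members and 6 sums, 100 groups in all. In 4 of them the gap between that library and its nearest neighbour over the group's range exceeded Dixon's 95% critical value for 4 samples. Chance gives about 1 in 20, so 4 of 100 is not more than chance gives. Ltv1, which accompanies the late small-subunit precursor, stood at 107.7 CPM in miR652-KD replicate 4, against 70.1 to 74.7 CPM in the other miR652-KD libraries. In NTC replicate 1 it stood at 35.8 CPM, against 79.4 to 83.4 CPM in the other NTC libraries. Nip7, a large-subunit factor, was at 82.4 CPM in miR652-KD replicate 1, against 125 to 129.9 CPM in the other miR652-KD libraries. The summed level of all 44 members was 6622 CPM in NTC replicate 2, against 5531 to 5664 CPM in the other NTC libraries.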

How the results depend on the processing

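No member was called under any of the 19 alternatives. Over all genes 6 were called, against 61 with DESeq2, 0 without any single library, 0 in both settings that left out 2 libraries (NTC replicates 3 and 4, or NTC replicate 2 with miR652-KD replicate 3) and 0 with the replicate block. Same-numbered libraries did not deviate together (correlations of -0.049 to -0.014 over genes), against -0.033 to 0.055 for libraries of different numbers. This gave no sign of pairing by number, but with 4 libraries per group it cannot exclude pairing. The block called 0 members. The median of all members was 0.067 to 0.24 without single libraries, highest without NTC replicate 2, and 0.23 without NTC replicate 2 and miR652-KD replicate 3, where the large-subunit median was 0.19. The ranges without single libraries were 0.047 to 0.11 for the large subunit and 0.20 to 0.37 for the snoRNP genes, whose median was 0.14 without NTC replicates 3 and 4. Members whose groups did not overlap numbered 1 to 7 without single libraries, where the share of all genes was 7.18% to 8.37%. They numbered 4 without NTC replicates 3 and 4 (9.09%, against 15% of all genes) and 11 without NTC replicate 2 and miR652-KD replicate 3 (25%, against 13.1%). None of the named members crossed the threshold. Of their values, 17 of 399 changed sign, all of Pol I genes. Without single libraries, Polr1a ranged between -0.26 and 0.15, Polr1b between -0.22 and 0.059, Polr1e between -0.020 and 0.38, Rrn3 between -0.039 and 0.27 and Ubtf between -0.087 and 0.13. Without NTC replicate 2 and miR652-KD replicate 3, Polr1a was at 0.27 and Ubtf at 0.0087; without NTC replicates 3 and 4, Polr1b was at 0.034 and Polr1e at -0.19. Ubtf was at 0.023 with limma-voom and 0.0050 with upper-quartile scaling. Nop56 (0.032 to 0.22), Npm1 (0.12 to 0.29), Polr1c (-0.28 to -0.040) and Sbds (-0.24 to -0.11) moved by over 1.5 times without single libraries. The cause of these changes was not tested. Scaling, filters and non-robust fits left the medians of the roles within the spread between replicates.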
